A study of Rattus norvegicus with 6 samples.

Results

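The genes described here code for the apolipoproteins Apoa1, Apoa4, Apoa5, Apob, Apoc3 and Apoe, the lipases Lpl and Lipc, the lipase inhibitor Angptl4 and the plasma enzyme Lcat. They were taken as every probe set whose single gene symbol in the array's annotation is one of these names. This gave 12 probe sets for 10 genes, out of 31042 probe sets and 14217 genes with a symbol of their own. Apob and Apoe had 2 probe sets each, and the one with the higher mean stands for the gene. All 12 probe sets lay above the filter on low values (a mean over the arrays above 2.82 on the log2 scale).

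Liver RNA of male Sprague Dawley rats of 210 to 230 g was hybridised to 6 Affymetrix Rat230_2 arrays. Tienilic acid (TA), a uricosuric diuretic withdrawn because of hepatitis, was given by gavage at 100 mg/kg in sodium bicarbonate. The groups were TA with livers taken at 6 h after 1 dose (2 arrays of 1 rat each), sodium bicarbonate vehicle at 6 h (1 array), TA with livers taken at 24 h after doses at 0 and 16 h (2 arrays of 1 rat each) and vehicle at 24 h after 2 doses (1 array). Each vehicle array held RNA pooled from 2 rats, so that neither vehicle group has a spread of its own, and all rats had free access to chow. The comparisons ask which genes differ early after TA in this tissue. Replicates are separate animals.

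The liver exports triglyceride in very low density lipoproteins built on apolipoprotein B. In the capillaries of fat and muscle, lipoprotein lipase removes that triglyceride, helped by apolipoprotein A-V and hindered by apolipoprotein C-III and by Angptl4. Remnants return to the liver through apolipoprotein E and hepatic lipase, and apolipoprotein A-I with Lcat builds high density lipoprotein (HDL), which carries cholesterol back. Hepatocytes make most of these proteins, whereas lipoprotein lipase is scarce in adult liver and is also made by its macrophages.

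The samples looked like liver. The 5 measured hepatocyte markers had log2 summed values between 17.91 and 18.01 on every array. All 4 markers of striated muscle and all 4 of exocrine pancreas stayed under the filter level on each array, as did 3 of 6 adipocyte markers (Adipoq, Plin1 and Lep) and 3 of 4 enterocyte markers. The other enterocyte marker, Fabp2, lay between 7.11 and 8.52, highest in animal 1 of TA at 24 h, against 7.28 in its pool. Array medians lay between 3.27 and 3.31, and any pair of arrays correlated at 0.991 to 0.997 over all probe sets. The start times in the array settings put animal 1 of TA at 6 h and the vehicle pool of 6 h into one inferred staining run, and the remaining arrays into a later one. Animal 1 of TA at 6 h also had the highest 3′ minus 5′ difference of GAPDH, where higher values mean more degraded RNA, at 2.26, against 1.82 to 2.04 elsewhere. The same difference of beta-actin did not set this array apart, at 4.31, against 4.17 to 4.36 elsewhere.

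None of the 10 genes passed limma's test at either time (Benjamini-Hochberg adjusted p under 0.05). The share of probe sets called over the whole array was 0% at 6 h and 0.00537% at 24 h. At unadjusted p under 0.05 there were also 0 of the 10 genes at each time, where the arrays as a whole had 5.84% of probe sets at 6 h and 5.28% at 24 h. The same test called none of them for the difference between the 2 effects or for their mean, where 0.00537% of probe sets were called in each. At unadjusted p under 0.05 the 10 genes again gave 0 for both, beside 4.8% of probe sets for the difference and 6.42% for the mean. These p-values rest on the spread between 2 treated animals a time, combined over both times, with 2 residual degrees of freedom. The fit also draws that spread toward a value shared by all probe sets. A probe set therefore has the same SE at 6 h and 24 h, and a small SE is not a measured spread alone. The values below are therefore given as measured, each with its standard error (SE) or its 95% interval, and all are on the log2 scale.

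Among the 10 genes, Lpl at 24 h stood furthest from its vehicle pool. Lpl had values of 6.39 and 5.73 in the TA livers of 24 h, against 7.62 in the vehicle pool of that time. At 6 h it was at 8.02 and 6.88 in the TA livers, against 7.41 in the vehicle pool. Both TA livers of 24 h thus lay below the 4 other arrays, while those of 6 h lay on either side of their pool. The log2 difference at 24 h was -1.56 ± 0.61 (SE, n = 2 treated animals), 2.95-fold lower in TA, with a 95% interval from -3.33 to 0.21 (limma, adjusted p = 0.966). Lpl was lower by at least 2-fold in each TA liver of 24 h, alone among the 10 genes. Over all 10449 genes above the filter, 0.211% were at least 2-fold lower in both. At 6 h none of the 10 genes was 2-fold apart in both TA livers, beside 0.249% of all genes at least 2-fold higher and 0.23% at least 2-fold lower. The difference of Lpl at 6 h was 0.05 ± 0.61, with an interval from -1.72 to 1.81, and within the staining run of that pool animal 1 was 0.62 above it. The effect at 24 h minus that at 6 h was -1.60 ± 0.86 (limma, adjusted p = 1.00), so a difference between the times was not detectable. In bulk tissue, fewer cells of a type and less RNA per cell cannot be told apart.

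The vehicle pool of 6 h gave Lpl at 24 h the same direction. Its value of 7.41 was close to the 7.62 of the pool of 24 h, and against it the difference was -1.35. Both TA livers of 24 h lay below both pools for 24.6% of all genes and below the 4 other arrays for 12.0%. Leaving out either animal of 24 h gave -1.23 or -1.89, and with the replicate number as a block it was -1.11.

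**Figure D1:**
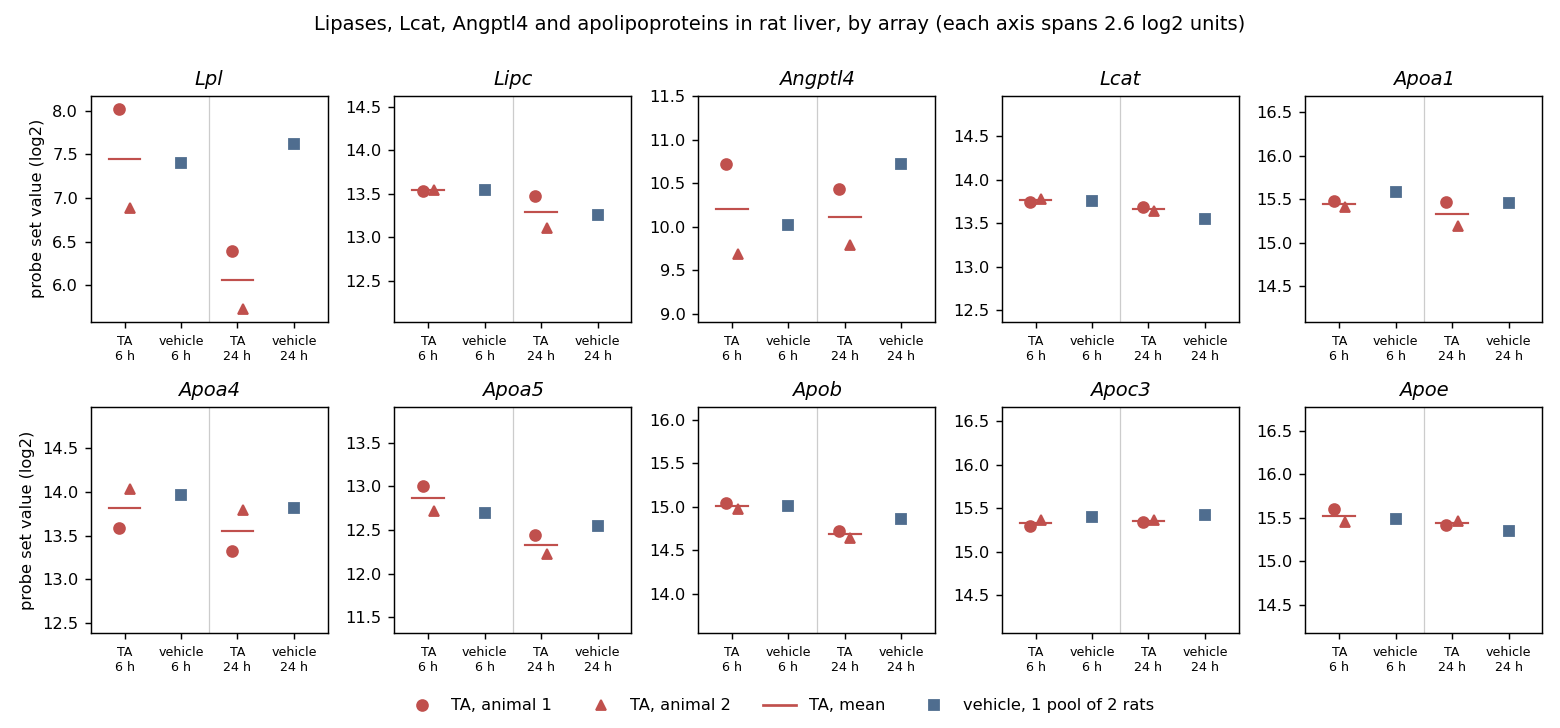
Probe set values (log2, vertical axis) of the 10 genes on each of the 6 arrays, with the TA livers (circle for animal 1, triangle for animal 2, line at their mean) beside the vehicle pool (square) at 6 h and at 24 h. Every axis spans the same width, so that Lpl, with 6.39 and 5.73 in TA livers of 24 h against 7.62 in the pool, and Angptl4 vary visibly while Apoc3 and Lcat stay almost level.

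Markers of other liver cells were read beside Lpl, singly and as sums in which the brightest markers weigh most. At 24 h, 2 of 6 Kupffer cell markers, 3 of 5 of sinusoidal endothelium and 2 of the 4 stellate cell markers above the filter were below the pool in both TA livers, as Lpl was, beside 34.5% of all genes, and 0 were above it in both. These were Cd68 and C1qb, Stab1, Stab2 and Pecam1, and Reln and Dcn. Stab1 had 7.61 and 8.04 in TA livers of 24 h, against 8.17 in the pool, and Reln 9.09 and 9.58, against 9.90. The endothelial markers Kdr (10.30 and 10.87, against 10.68) and Lyve1 (11.39 and 11.93, against 11.82) were above the pool in animal 2 and below it in animal 1. The 6 measured Kupffer cell markers, those of the liver's macrophages, had summed values of 12.28 and 12.62 in the TA livers of 24 h, against 12.54 in the pool. Animal 1 of 24 h, the higher for Lpl, had the lowest value of all arrays for each of the 6. In animal 2, with the lowest Lpl of all arrays, their sum was above the pool. At 6 h these sums were 12.92 and 12.58 in the TA livers, against 12.57 in the pool, and animal 1, the highest for Lpl, was also the highest for each of the 6. The 6 stellate cell markers summed to 11.64 and 12.08 in TA livers of 24 h, against 12.03 in the pool. The 5 markers of sinusoidal endothelium summed to 12.13 and 12.65, against 12.55. For each of these sums animal 1 was below the pool at 24 h and animal 2 above it. Decorin (Dcn), a stellate cell marker, was at 6.87 and 4.88 in TA livers of 24 h, against 7.14 in the pool, and so shared its lowest array with Lpl. On that array, of animal 2, the stellate cell markers Lrat (9.78, against 9.67 in the pool) and Colec11 (11.37, against 11.15) were above the pool. Reln was lowest in animal 1. At 6 h the stellate cell sums were 12.42 and 12.22 in TA livers, against 12.25 in the pool, and the endothelial ones 12.46 and 12.48, against 12.77. Of 6 markers of adipocytes, a main source of Lpl in the body, Adipoq was at 2.03 to 2.07 on all arrays. All 6 summed to 10.61 and 10.82 in TA livers of 24 h, against 10.82 in the pool, and to 10.22 and 10.00 in those of 6 h, against 10.13 in the pool. Most of each sum came from 1 marker, Cidec, at 10.49 and 10.72 in TA livers of 24 h, against 10.73 in the pool. The part of these cells in the value of Lpl was not tested.

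**Figure D2:**
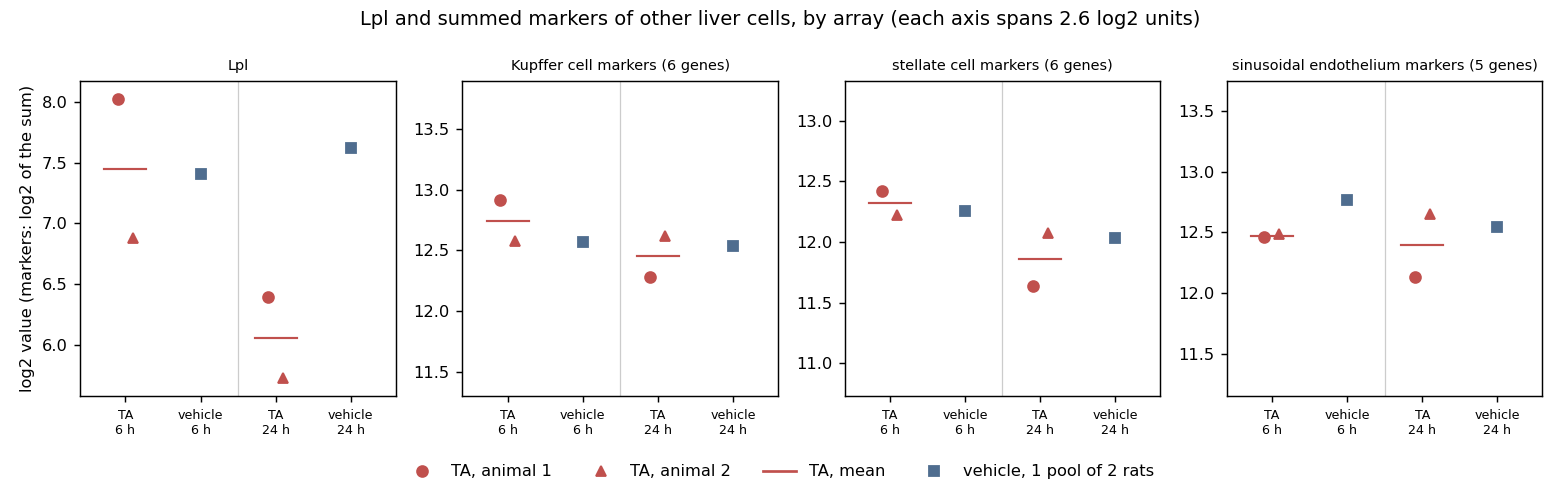
Lpl (log2 value, left) and the log2 of the summed values of Kupffer cell, stellate cell and sinusoidal endothelium markers, per array, with the TA livers (circle and triangle, line at the mean) left of the vehicle pool (square) at each time. At 24 h Lpl lies below the pool in both TA livers. The Kupffer cell sums of 12.28 and 12.62 lie on either side of the pool at 12.54. Singly, 2 of the 6 Kupffer cell markers lie below it in both, beside 34.5% of all genes.

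Angptl4, a secreted protein that inactivates lipoprotein lipase and responds to fasting through PPAR receptors, varied more between animals than between groups. It was at 10.72 and 9.69 in the TA livers of 6 h, against 10.02 in the vehicle pool. At 24 h it was at 10.43 and 9.79 in TA livers, against 10.72 in the pool. The treated animals of 6 h thus stood on either side of their pool, and those of 24 h both below it. The log2 difference was 0.18 ± 0.56 at 6 h and -0.61 ± 0.56 at 24 h (SE, n = 2 treated animals each; limma, adjusted p = 1.00 for both). The pools themselves differed by 0.70, the one of 24 h being higher. Against the pool of the other time the differences became -0.51 at 6 h and 0.09 at 24 h, so that the sign of each rested on which pool was used. Within the staining run of the 6 h pool, animal 1 was 0.70 above it. At 6 h, animals 1 and 2 differed from each other by 1.14 for Lpl and by 1.03 for Angptl4, a gap over 1 that 1.91% of all genes had, and animal 1 was the higher for both. The median gap over all genes was 0.15 at 6 h and 0.16 at 24 h.

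Lipc, the hepatic lipase that acts on remnants and HDL, was level at 6 h, with 13.54 and 13.54 in the TA livers, against 13.55 in the pool. The TA livers of 24 h had 13.48 and 13.11, on either side of the pool at 13.26. Its log2 difference was -0.01 ± 0.19 at 6 h and 0.03 ± 0.19 at 24 h. The 95% interval at 24 h ran from -0.52 to 0.59, which is within 2-fold either way.

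Lcat, which esterifies cholesterol on HDL, was at 13.74 and 13.78 in TA livers of 6 h, against 13.76 in the pool. In TA livers of 24 h it was at 13.69 and 13.65, both above the pool at 13.55. The difference of 0.12 ± 0.10 at 24 h turned to -0.09 against the pool of 6 h. Apoa1, the main protein of HDL and the activator of Lcat, was at 15.48 and 15.41 in TA livers of 6 h, both below the pool at 15.58. Later, at 24 h, TA livers had 15.47 and 15.20, on either side of the pool at 15.46. The differences of Apoa1 were -0.14 ± 0.16 at 6 h and -0.13 ± 0.16 at 24 h. For both genes each 95% interval included 0.

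Apoa4, an apolipoprotein of chylomicrons and HDL, was at 13.59 and 14.04 in TA livers of 6 h, on either side of the pool at 13.97. TA livers of 24 h had 13.32 and 13.80, both below the pool at 13.81. Animal 1 was the lower at each time. The differences were -0.16 ± 0.31 and -0.26 ± 0.31, with intervals as wide as -1.16 to 0.65 at 24 h. Apoa4, Apoa1, Apoc3 and Apoa5 are direct neighbours in the rat assembly GRCr8, in the order Apoa1, Apoc3, Apoa4, Apoa5. At 24 h the 4 genes had differences from -0.26 to -0.08, and 3 of them, all but Apoa1, were below the pool in both TA livers, beside 34.5% of all genes. At 6 h Apoa1 and Apoc3 were below the pool in both TA livers, Apoa5 was above it in both, and Apoa4 lay on either side.

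Apoa5, which promotes the action of lipoprotein lipase, was the one of the 10 genes above its pool in both TA livers at 6 h and below it in both at 24 h. Of all genes, 22.9% were above at 6 h and 34.5% below at 24 h, and the share with both was not counted. Apoa5 was at 13.00 and 12.72 in TA livers of 6 h, against 12.70 in the pool, and at 12.44 and 12.22 in TA livers of 24 h, against 12.55 in the pool. The TA livers of 6 h were also above both pools, as for 13% of all genes, and those of 24 h below the 4 other arrays. The differences were 0.17 ± 0.19 and -0.21 ± 0.19, and the effect at 24 h minus that at 6 h was -0.38 ± 0.27 (limma, adjusted p = 1.00). Apoc3, which slows lipoprotein lipase and remnant uptake, had the smallest spread of the 10 genes. It was at 15.30 and 15.36 in TA livers of 6 h, against 15.40 in the pool. At 24 h it was at 15.34 and 15.36 in TA livers, against 15.43 in the pool. It was thus below the pool in all 4 TA livers, by -0.07 ± 0.10 at 6 h and -0.08 ± 0.10 at 24 h. Both TA livers were below the pool for 38.4% of all genes at 6 h and 34.5% at 24 h. The share below at both times was not counted.

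Apob, the structural protein of very low and low density lipoproteins, was at 15.05 and 14.97 in TA livers of 6 h, on either side of the pool at 15.01. TA livers of 24 h had 14.72 and 14.65, both below the pool at 14.86 and below the 4 other arrays. The difference was 0.00 ± 0.10 at 6 h and -0.17 ± 0.10 at 24 h, with an interval from -0.47 to 0.13. Its other probe set disagreed at 6 h. That probe set was at 5.62 and 5.63 in TA livers of 6 h, against 6.54 in the pool, and at 5.39 and 5.40 in TA livers of 24 h, against 5.45 in the pool. The vehicle pool of 6 h alone was high, and the 5 other arrays lay within 5.39 to 5.63. The difference at 6 h was -0.92 ± 0.09 (limma, adjusted p = 0.644). It was the only one of the 12 probe sets with an unadjusted p under 0.05. The treated animals differed there by 0.00121, so that SE comes mostly from the value shared by all probe sets. It was 0.04 without the filter on low values. The pool has no replicate. Against the pool of 24 h the difference was 0.18.

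Apoe, the ligand for remnant uptake, was at 15.60 and 15.45 in TA livers of 6 h, on either side of the pool at 15.49. TA livers of 24 h had 15.42 and 15.47, both above the pool at 15.35. The differences were 0.04 ± 0.12 and 0.09 ± 0.12. Its other probe set lay between 3.52 and 3.62 on all arrays, close to the array medians. The brightest probe sets, such as those of Apoa1, Apoc3 and Apoe, lie near the top of a scale that ended at 16.54 to 16.67 on these arrays. Scanner intensities were not used here, so saturation of these probe sets was not tested.

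**Figure D3:**
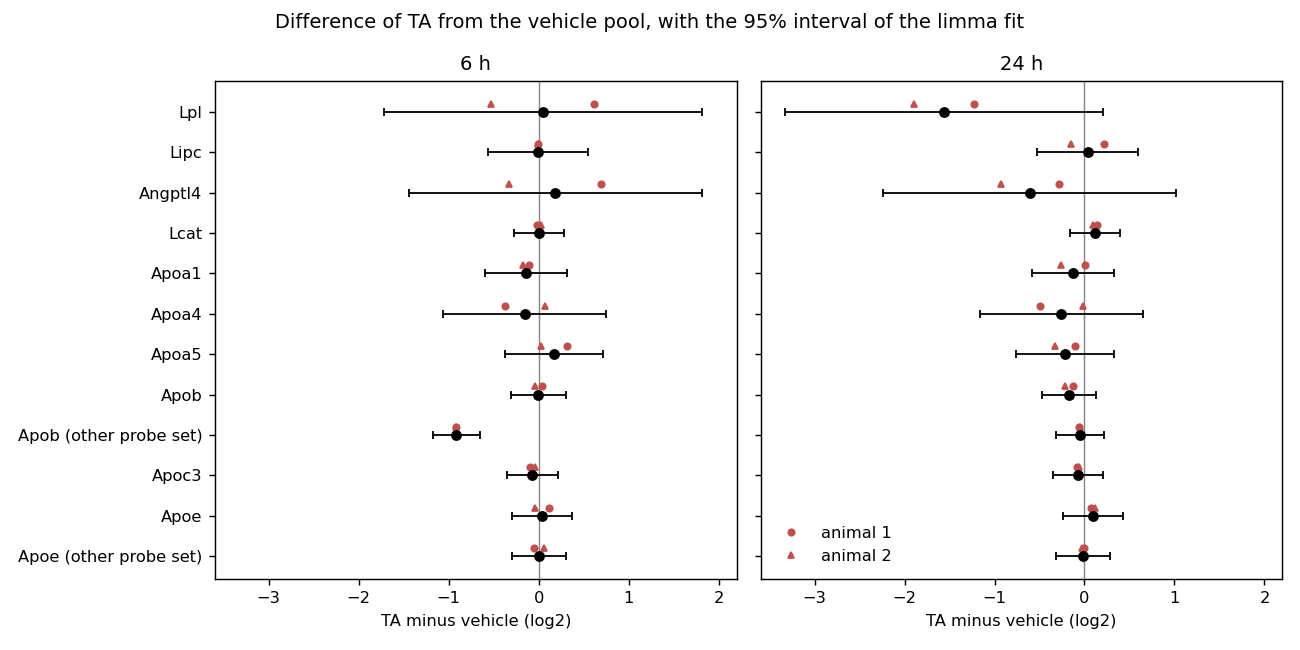
Log2 differences of TA from the vehicle pool (horizontal axis) for the 12 probe sets at 6 h (left) and 24 h (right), as black points with 95% intervals of the limma fit, and as red marks for each treated animal. Lpl at 24 h lies at -1.56, and the other probe set of Apob at 6 h at -0.92; the other points lie between -0.61 and 0.18.

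Counted by direction, 1 of the 10 genes was higher and 3 were lower in both TA livers at 6 h, while 22.9% of all genes were higher and 38.4% lower. At 24 h, 2 were higher and 6 lower, beside 28.1% and 34.5% of all genes. Either way, the TA livers of a time shared a side for 4 of the 10 genes at 6 h and 8 at 24 h, beside 61.3% and 62.6% of all genes. Both livers of a time are compared with the same pool, so a shared side is not independent evidence. The median log2 difference over the 10 genes was 0.00 at 6 h and -0.15 at 24 h, beside -0.03 and -0.01 over all genes. For the 8 genes other than Lpl and Angptl4, differences ran from -0.16 to 0.17 at 6 h and from -0.26 to 0.12 at 24 h. All 8 intervals at 24 h lay within -1.16 to 0.65. The gap between the 2 animals exceeded the difference from the pool for 7 of the 10 genes at 6 h and for 5 at 24 h. Between the vehicle pools, the one of 24 h was the lower for 7 of the 10 genes, as it was for 59.3% of all genes, and the log2 difference of that pool from the one of 6 h ran from -0.29 (Lipc) to 0.70 (Angptl4).

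Over the 6 arrays, 2 of the 10 genes spanned at least 1 log2 unit, Lpl at 2.29 and Angptl4 at 1.03. The genes closest to Lpl, by the root mean square difference of profiles centred on their own means, were Nupr1 (0.29), Angpt2 (0.31) and Aoc3 (0.33). Nupr1, a stress-induced chromatin protein, was at 8.36 and 8.25 in TA livers of 24 h, against 9.30 in the pool, and at 9.77 and 8.57 in TA livers of 6 h, against 9.39 in the pool. Aoc3, a vascular and adipose amine oxidase, was at 5.96 and 5.37 in TA livers of 24 h, against 6.62 in the pool. Both had the order of Lpl within each pair of animals. Those closest to Angptl4 were Gas6 (0.15), Tes (0.15) and B4galt1 (0.17). Gas6, a ligand of TAM receptors, was at 11.23 and 10.16 in TA livers of 6 h, against 10.87 in the pool. These likenesses rest on 6 arrays and are descriptions.

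Other genes of lipoprotein metabolism were looked up in 7 lists, 82 genes of which 72 had a probe set named for them and 67 lay above the filter. None of them passed limma's test at either time, and 3 at 6 h and 4 at 24 h had an unadjusted p under 0.05, beside 5.63% and 5.16% of all genes. In both TA livers, 15 of the 67 were higher and 29 lower at 6 h, beside 22.9% and 38.4% of all genes. At 24 h 19 were higher and 23 lower, beside 28.1% and 34.5%. Among other apolipoproteins (8 genes above the filter), 0 were higher and 2 lower in both TA livers at 6 h, and 3 were higher and 3 lower at 24 h, with medians of -0.03 and 0.04. Apoa2, the second protein of HDL, was below its pool in all 4 TA livers, with 13.91 and 14.07 at 6 h against 14.24 in the pool, and 13.95 and 14.14 at 24 h against 14.40 in the pool. Its differences were -0.24 ± 0.15 and -0.35 ± 0.15. The share of all genes below the pool in all 4 TA livers was not counted. Apoc4 had 0.15 ± 0.21 at 6 h, and Apoc2, the activator of lipoprotein lipase, had 0.14 ± 0.10 at 24 h.

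Genes for the assembly of apolipoprotein B particles had medians of -0.12 at 6 h and 0.03 at 24 h over 11 genes. At 6 h 7 were lower and 3 higher in both TA livers, beside 38.4% and 22.9% of all genes. At 24 h 1 was lower and 3 were higher, beside 34.5% and 28.1%. Apobec1, the enzyme that edits Apob transcripts to the short form, had 0.32 ± 0.21 at 6 h and -0.34 ± 0.21 at 24 h, the second made of -0.15 in animal 1 and -0.54 in animal 2. Cideb, which aids lipid loading, had -0.19 ± 0.12 at 6 h, and Tm6sf2 0.17 ± 0.12 at 24 h. Lipoprotein receptors and uptake genes had medians of -0.08 and -0.10 over 8 genes. At 6 h 2 were higher and 3 lower in both TA livers, and at 24 h 1 was higher and 4 lower, beside the same shares of all genes. At 6 h, Olr1 had -0.21 ± 0.10 and Cd36, a fatty acid transporter, 0.29 ± 0.27. At 24 h, Scarb1, the HDL receptor, had 0.20 ± 0.12 and Lrp1, a remnant receptor, -0.27 ± 0.21, with -0.47 in animal 1 and -0.063 in animal 2.

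Other lipases and lipase regulators had medians of -0.21 at 6 h and -0.17 at 24 h over 7 genes. In both TA livers 6 were lower at 6 h and 2 at 24 h, beside 38.4% and 34.5% of all genes. At either time 0 were higher in both, beside 22.9% and 28.1%. Angptl8, a feeding-induced partner of the Angptl proteins, was at 8.68 and 8.47 in TA livers of 6 h, against 9.60 in the pool. At 24 h it was at 11.70 and 12.38 in TA livers, against 11.72 in the pool, so that all arrays of 24 h were above all arrays of 6 h. Its difference at 6 h was -1.03 ± 0.34 (limma, adjusted p = 0.841). Pnpla2, adipose triglyceride lipase, had -0.38 ± 0.26 at 6 h, with -0.56 in animal 1 and -0.20 in animal 2. At 24 h Sel1l, needed for folding of Lpl protein, had -0.20 ± 0.14 (-0.075 in animal 1 and -0.31 in animal 2) and Lipa, the lysosomal lipase, -0.26 ± 0.22 (-0.046 and -0.47).

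Genes of HDL and cholesterol efflux had medians of 0.09 and 0.03 over 7 genes. In both TA livers 2 were higher and 0 lower at 6 h, beside 22.9% and 38.4% of all genes. At 24 h 3 were higher and 3 lower, beside 28.1% and 34.5%. The paired sterol transporters Abcg5 and Abcg8 were the 2 list genes at least 2-fold apart from the pool in both TA livers by the deposited values, at 24 h, where 0.258% of all genes were at least 2-fold higher. Abcg5 was at 7.20 and 8.12 in TA livers of 24 h, against 5.09 in the pool, and Abcg8 at 3.66 and 4.66, against 2.62, a value below the filter level. At 6 h Abcg5 was at 8.45 and 6.24, on either side of the pool at 7.26, and Abcg8 at 5.64 and 3.09, on either side of 3.67. No array had less of either gene than the pool of 24 h. Abcg5 differed by 2.57 ± 1.09 (limma, adjusted p = 0.978), which became 0.40 against the pool of 6 h. For Abcg8 the pool gives a bound only: TA livers averaged at least 1.34 higher, taking the filter level in place of the pool, with animal 1 at least 0.84 higher, under 2-fold. Against the pool of 6 h Abcg8 had 0.49. Abca1, which loads cholesterol onto Apoa1, had 4 probe sets that disagreed at 24 h, with -0.92 ± 0.26 on the brightest and -0.79, 1.82 and 1.18 on the others. At 6 h Pltp had 0.20 ± 0.29 (0.40 in animal 1 and 0.00055 in animal 2) and Abcg1 0.12 ± 0.14 (0.23 and 0.0066), so animal 1 alone set both.

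Transcription factors of lipoprotein genes had medians of -0.15 at 6 h and -0.04 at 24 h over 18 genes. In both TA livers 4 were higher and 10 lower at 6 h, beside 22.9% and 38.4% of all genes. At 24 h 7 were higher and 8 lower, beside 28.1% and 34.5%. Hnf4a, the hepatocyte factor that drives many apolipoprotein genes, had -0.17 ± 0.10 at 6 h and -0.33 ± 0.10 at 24 h (limma, adjusted p = 0.925 at 24 h) on its brightest probe set. The other probe sets of Hnf4a went the other way at 6 h, with 0.53 and 0.50, both animals above the pool on each, and had -0.21 and -0.29 at 24 h. Ppargc1a, a coactivator of fasting genes, was at 4.48 and 4.35 in TA livers of 24 h, against 5.40 in the pool. Another of its probe sets that passed the filter had a difference of -0.03. That probe set was at 2.91 and 2.87 in TA livers of 24 h, against 2.92 in the pool, all close to the filter level. So near that level, it cannot show whether the lower value in TA livers is repeated. Srebf1, the regulator of fatty acid synthesis, was at 10.20 and 10.01 in TA livers of 6 h, against 10.62 in the pool, and at 11.72 and 11.66 in TA livers of 24 h, against 11.36 in the pool. Its differences were -0.52 ± 0.13 and 0.33 ± 0.13 (limma, adjusted p = 0.798 and 0.966). Rora had -0.74 ± 0.32 at 6 h, with -1.07 in animal 1 and -0.42 in animal 2.

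PPAR targets of the kind that move with Angptl4 in fasting had medians of 0.03 and 0.10 over 8 genes. In both TA livers 4 were higher and 1 lower at 6 h, beside 22.9% and 38.4% of all genes. At 24 h 2 were higher and 2 lower, beside 28.1% and 34.5%. Ehhadh, of peroxisomal fatty acid oxidation, had 0.54 ± 0.16 at 6 h, and Cyp4a1, a fatty acid hydroxylase, 0.51 ± 0.21 at 6 h and 0.46 ± 0.21 at 24 h. Cpt1a, which admits fatty acids to mitochondria, had -0.34 ± 0.12 at 24 h on its brightest probe set and -0.03 on the other, with the animals at -0.30 and 0.25. The brightest was at 10.19 and 10.37 in TA livers of 24 h, against 10.62 in the pool, and near 12 on the arrays of 6 h, at 12.03 and 11.98 in TA livers, against 11.93 in the pool.

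**Figure D4:**
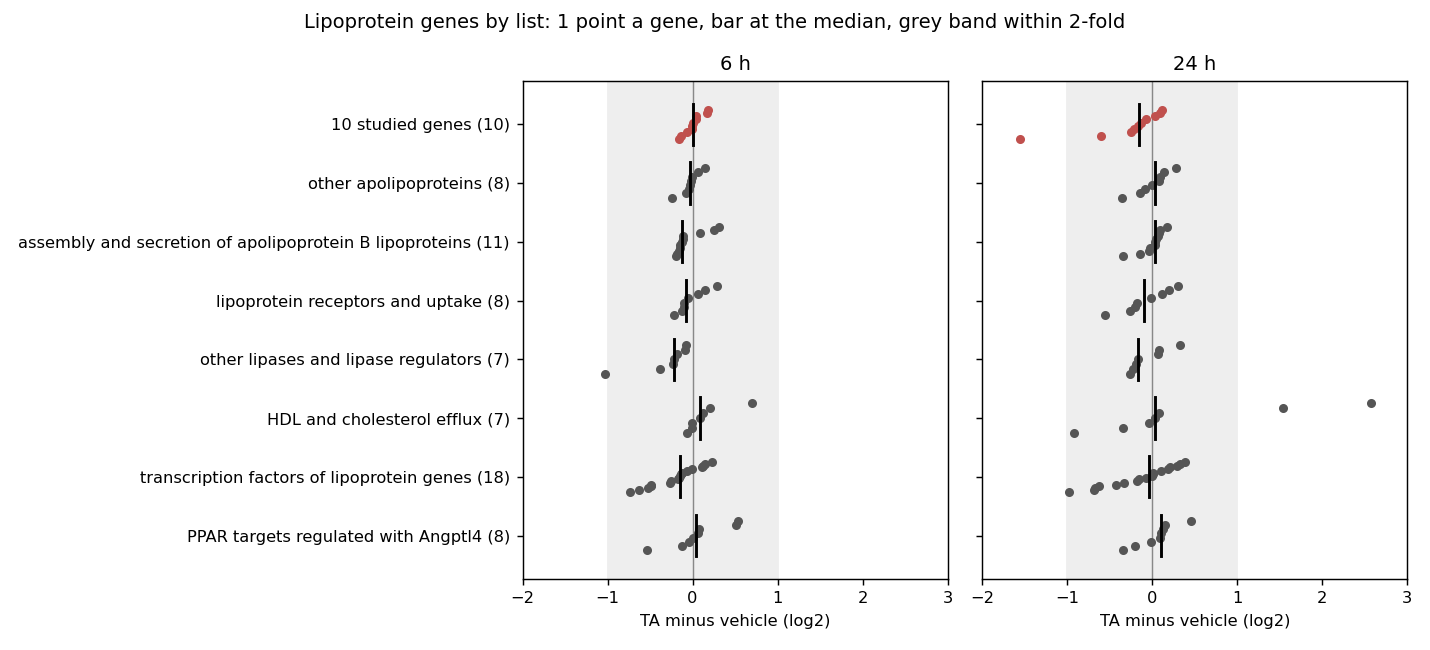
Log2 differences of TA from vehicle (horizontal axis) at 6 h (left) and 24 h (right) for the 10 genes (red) and for 7 lists of other lipoprotein genes (grey), 1 point a gene above the filter, with a bar at each list's median. Points outside the grey band differ by more than 2-fold on average: Lpl, Abcg5 and Abcg8 at 24 h, Abcg8 drawn at its deposited value, and Angptl8 at 6 h.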

How the data were processed

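The authors deposited normalized log2 probe set values of 6 Affymetrix Rat230_2 arrays. The submitters' processing notes name R 2.0.1, affy 1.5.8, RMA and GCRMA, and the sources used here do not say which of the last pair produced these values. Staining runs were inferred from start times in the array settings deposited for each sample, with arrays of close start times put together. No label names these runs. No depth applies to arrays; precision is limited by how few there are.

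Starting from these values, 57 control probe sets were removed and probe sets with a mean above the 40th percentile kept: 18625, for 10449 genes, each represented by its probe set of highest mean. In the platform annotation 20826 probe sets have 1 symbol, 436 several and 9780 none. All 12 studied probe sets matched a RefSeq gene identifier. A mean for each group was fitted over all 6 arrays (limma 3.58.1, lmFit and eBayes, R 4.3.3, with 2 residual and 1.60 prior degrees of freedom). Tests were two-sided, adjusted by Benjamini-Hochberg over all probe sets kept and called under 0.05. The error comes from the spread of treated animals within a time, combined over both times and drawn by eBayes toward a value shared by all probe sets. It assumes that a pool varies like an animal. The procedure was tested on simulated data in which a pool varies like an animal, so that assumption itself was not tested.

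Of each list, the genes named at a time were those called, filled up to 2 by smallest unadjusted p, and those at least 2-fold apart the same way in both animals. For genes spanning at least 1 log2 unit, the 3 genes of closest profile were named. Hnf4a at 6 h and both times of Apobec1, Apoa2, Srebf1, Angptl8, Abcg5, Abcg8 and Cpt1a were shown whole beside the time that named them, and the marker genes named singly were chosen after their values were seen. Genes, lists and rules were chosen with earlier results of these data known. The alternatives changed the filter, normalization, prior, control group, probe set summary, and replicate or run block, or left out a treated animal.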

Additional observations from a re-analysis of the deposited data

Results flagged for a closer look

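Genes whose TA livers all lay on one side of the pool at 6 h and all on the other at 24 h were singled out for a closer look. Among the 10 genes this held for Apoa5 alone, with an effect at 24 h minus that at 6 h of -0.38 (log2). Among the named list genes the same difference was -0.66 for Apobec1, 0.27 for Cideb, 0.29 for Tm6sf2, -0.42 for Lrp1, 0.33 for Scarb1, -0.15 for Abcg1, -0.54 for Pltp, 0.85 for Srebf1 and -0.41 for Cpt1a. In limma's test of the difference between the times each had an adjusted p of 1.00. The 2 times have different vehicle pools of 1 array each, so each of these differences includes the difference between the pools. The share of all genes on opposite sides at the 2 times was not counted. Other probe sets of Scarb1 and Cpt1a did not repeat the pattern: at 6 h the animals were at 0.29 and -0.04 for Scarb1 and 0.19 and -0.02 for Cpt1a. That of Srebf1 did, with -0.75 at 6 h and 0.55 at 24 h. Abcg1 and Pltp met the rule at 6 h through differences of only 0.0066 and 0.00055 in animal 2.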

How the results depend on the processing

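The 55 results with a test were recomputed under 15 alternatives, of which 14 are distinct: the staining run block gives the same values as leaving out animal 2 of TA at 6 h, for 63 of 63 results. Of 820 values, 777 kept direction and call, and 43 took the other sign, 24 of them by less than the original standard error; no named gene was called under any alternative. Lpl at 24 h stayed between -1.89 and -1.11 (limma, adjusted p from 0.465 to 1.00). The cause of the changes below was not tested.

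With the pool of the other time as control, the differences at 6 h were -0.17 for Lpl, 0.28 for Lipc, -0.51 for Angptl4, 0.000651 for Apoa4, 0.15 for Apob, 0.18 for its other probe set, -0.019 for Apoc4, 0.088 for Cideb, -0.021 for Apobec1, 0.0027 for Olr1 and -0.42 for Cd36. At 24 h they were -0.25 for Lipc, 0.089 for Angptl4, -0.089 for Lcat, -0.041 for Apoe, -0.10 for Tm6sf2 and -0.43 for Scarb1, and the 24 h minus 6 h value of the other Apob probe set was -1.32. The medians over the 10 genes became 0.076 at 6 h and -0.25 at 24 h, with 1 probe set called at 6 h and 0 at 24 h.

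With both pools as 1 control group, Lpl had -0.060, Lipc 0.14, Angptl4 -0.17, Apob 0.074 and Cd36 -0.064 at 6 h, Lipc -0.11 and Scarb1 -0.11 at 24 h, and the other Apob probe set -0.23 for 24 h minus 6 h; the median at 24 h was -0.22. Quantile normalization gave Lipc 0.10 at 6 h and a median of 0.069, centring gave Apob 0.0012 at 6 h, and the mean of probe sets gave Abca1 0.32 at 24 h. The staining run as a block gave -0.015 for Lcat, 0.034 for Apob and -0.063 for Apoc4 at 6 h.

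A replicate block gave 0.083 for Lipc and 0.035 for Apob at 6 h, a median of 0.048, -1.11 for Lpl at 24 h and no call in any comparison. The numbers name different animals at each time, and deviations correlated at -0.08 across probe sets, so they do not pair the samples.

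Leaving out 1 treated animal gave ranges at 6 h of -0.52 to 0.62 for Lpl, -0.33 to 0.70 for Angptl4, -0.015 to 0.022 for Lcat, -0.38 to 0.067 for Apoa4, -0.040 to 0.034 for Apob, -0.039 to 0.11 for Apoe and -0.063 to 0.35 for Apoc4, and at 24 h of -0.15 to 0.22 for Lipc and -0.26 to 0.0076 for Apoa1. The median over the 10 genes ran from -0.039 to 0.012 at 6 h and from -0.18 to -0.095 at 24 h. A lone animal was assumed to vary like the other groups.

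The 1 probe set called at 24 h, for the difference and for the mean was 0 in each with the filter at the 60th percentile, both pools as 1 control, a replicate block, the run block or gene means. Leaving out 1 animal gave 0 to 2 at 24 h and 0 for the other comparisons, and a variance trend gave 2 at 24 h and 2 for the mean.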
